A study of Mus musculus with 28 samples.

Results

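The comparison described here set mouse embryonic stem cells (ESCs) labelled as Tet2 knockout against ESCs labelled as carrying a mutant Tet2. It took the 4 RNA-seq libraries of the Tet2-KO and Tet2-Mut groups among the 28 samples of the series, which also holds bisulfite and CUT&Tag samples that were not analysed here. A gene was tested when its normalized count was at least 10 in at least 2 of the 7 RNA-seq libraries, which 17338 of the 17342 genes in the table met. All cells were of the V6.5 background, male and hybrid between 129 and C57BL/6, and were cultured in serum with LIF, the cytokine that sustains self-renewal. Tet2-KO was represented by 2 clones labelled as knockout, Tet2-Mut by 2 clones labelled as mutant, and Tet2-WT by 3 independent wild-type ESC samples. Tet2-WT values are given beside the others for orientation. The Tet2-WT samples also entered the main test, where they share in the estimate of the spread. The labels do not describe the mutation or the deletion. The cells had grown on feeder fibroblasts, had been pre-plated to take these away, and spent the night before RNA extraction on gelatin. The series addresses what Tet2 does apart from its enzymatic activity, and this comparison sets the knockout against the mutant gene. With 2 clones a group, a difference between these clones and a difference between the genotypes cannot be told apart.

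Tet2 is a dioxygenase that oxidizes 5-methylcytosine in DNA, a step towards the loss of methylation. Tet proteins also act as scaffolds, and the Sin3a corepressor complex with its histone deacetylases is among their partners in ESCs. ESCs in serum and LIF express a core network led by Oct4 and Nanog, and they hold the genes of gastrulation, of the placenta and of innate immunity at low levels. Wnt ligands act in ESCs through beta-catenin and Tcf/Lef factors, which bind DNA sites with the core CTTTGA, and they switch on the primitive streak gene T.

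Genes called higher in Tet2-KO included primitive streak genes with Wnt ligands, and interferon-responsive genes, so promoters of these 2 groups are shown first. Each sequence is the 250 bases before the start of a listed promoter's gene entry, 5′ to 3′ in the gene's direction, from RefSeq on GRCm38.p6 (mm10). For Gbp2b and Gbp3 that start lies inside the gene span used for positions, which begins at chr3:142594816 and chr3:142560016. Distances below are from the start used for the sequence. In the promoters of T (chr17:8434173-8434422, + strand), the mesoderm transcription factor, and Sp5 (chr2:70474673-70474922, + strand), a Wnt-induced repressor, capitals mark CTTTGA or its reverse complement.
T: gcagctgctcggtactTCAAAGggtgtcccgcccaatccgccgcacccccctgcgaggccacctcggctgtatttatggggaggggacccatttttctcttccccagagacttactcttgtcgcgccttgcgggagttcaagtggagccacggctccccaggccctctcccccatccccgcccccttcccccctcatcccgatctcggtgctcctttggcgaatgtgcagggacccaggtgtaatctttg
Sp5: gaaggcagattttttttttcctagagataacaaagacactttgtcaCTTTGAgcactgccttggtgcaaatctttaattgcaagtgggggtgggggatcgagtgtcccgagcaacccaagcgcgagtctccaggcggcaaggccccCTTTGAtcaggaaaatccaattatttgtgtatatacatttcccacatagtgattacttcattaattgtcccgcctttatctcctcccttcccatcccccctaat
In the promoters of 3 guanylate-binding protein genes, which encode interferon-induced GTPases, capitals mark GAAA, any 2 bases and GAAA, the core of the interferon-stimulated response element, or its reverse complement. They are Gbp2 (chr3:142620413-142620662, + strand), Gbp2b (chr3:142594597-142594846, + strand) and the first of 2 listed promoters of Gbp3 (chr3:142559794-142560043, + strand), where 2 overlapping matches run together.
Gbp2: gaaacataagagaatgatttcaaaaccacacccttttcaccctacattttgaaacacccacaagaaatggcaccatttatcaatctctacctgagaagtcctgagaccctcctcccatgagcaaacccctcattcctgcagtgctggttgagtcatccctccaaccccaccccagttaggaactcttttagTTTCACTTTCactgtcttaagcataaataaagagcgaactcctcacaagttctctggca
Gbp2b: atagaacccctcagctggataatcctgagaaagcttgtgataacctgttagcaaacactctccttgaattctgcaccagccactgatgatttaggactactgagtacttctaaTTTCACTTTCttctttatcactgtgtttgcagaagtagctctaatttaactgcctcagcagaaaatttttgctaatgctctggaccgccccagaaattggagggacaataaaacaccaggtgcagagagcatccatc
Gbp3: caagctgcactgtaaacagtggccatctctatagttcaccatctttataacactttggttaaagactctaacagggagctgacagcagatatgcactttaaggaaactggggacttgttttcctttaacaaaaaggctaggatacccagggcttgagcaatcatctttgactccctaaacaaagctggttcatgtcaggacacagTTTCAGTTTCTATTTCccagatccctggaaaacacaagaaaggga
In the first of 2 listed promoters of Irf1 (chr11:53769764-53770013, + strand), a transcription factor of the interferon response, capitals mark TTCNNNGAA, the palindromic core to which STAT factors bind.
Irf1: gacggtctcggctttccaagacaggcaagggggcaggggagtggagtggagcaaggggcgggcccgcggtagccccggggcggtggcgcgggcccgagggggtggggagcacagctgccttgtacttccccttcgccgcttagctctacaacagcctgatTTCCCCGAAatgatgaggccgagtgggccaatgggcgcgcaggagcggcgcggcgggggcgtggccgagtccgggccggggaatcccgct

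Before the results, the libraries themselves are described. Reads assigned to genes, as recovered from the deposited values, numbered 48.9 M and 52.9 M in Tet2-Mut, 48.3 M and 47.9 M in Tet2-KO and 41.9 M to 58.5 M in Tet2-WT. The Tet2-Mut clones differed from each other by 45.1 in chi-square per degree of freedom and the Tet2-KO clones by 34.2, while pairs of Tet2-WT samples differed by 7.19 to 13.4. Tet2-Mut replicate 1 was nearly as close to Tet2-KO replicate 2 (35.3) as the Tet2-KO clones were to each other, and Tet2-Mut replicate 2 was far from both Tet2-KO clones (87.3 and 85.3). Among 8 stem cell markers, the summed normalized count was 270300 and 275200 in Tet2-Mut, 226800 and 275500 in Tet2-KO and 274200 to 278400 in Tet2-WT, with every marker high in every library.

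Gene levels were shifted along whole chromosomes, and the shift on chromosome 8 separated the groups compared. The median gene of chromosome 8 lay 0.285 and 0.268 above the Tet2-WT mean on the log2 scale in the Tet2-Mut clones, while in the Tet2-KO clones it stood at -0.283 and -0.241. The Tet2-WT libraries lay between -0.033 and 0.055. All 13 bins of 10 Mb along the chromosome showed it, with median log2 fold changes of Tet2-KO against Tet2-Mut from -0.613 to -0.346. On chromosome 14 the median gene of Tet2-Mut replicate 2 was 0.493 above the Tet2-WT mean and the other libraries lay between -0.046 and 0.019. The 7 Y-linked genes tested differed within both groups, at a median of 1.401 and -5.069 in Tet2-Mut replicates 1 and 2 and -2.982 and 0.856 in Tet2-KO replicates 1 and 2, and 0 of them were called. The other 18 chromosomes had library medians between -0.044 and 0.089. Results on chromosomes 8 and 14 are therefore marked as such below, and chromosome 8 is treated separately.

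**Figure D1:**
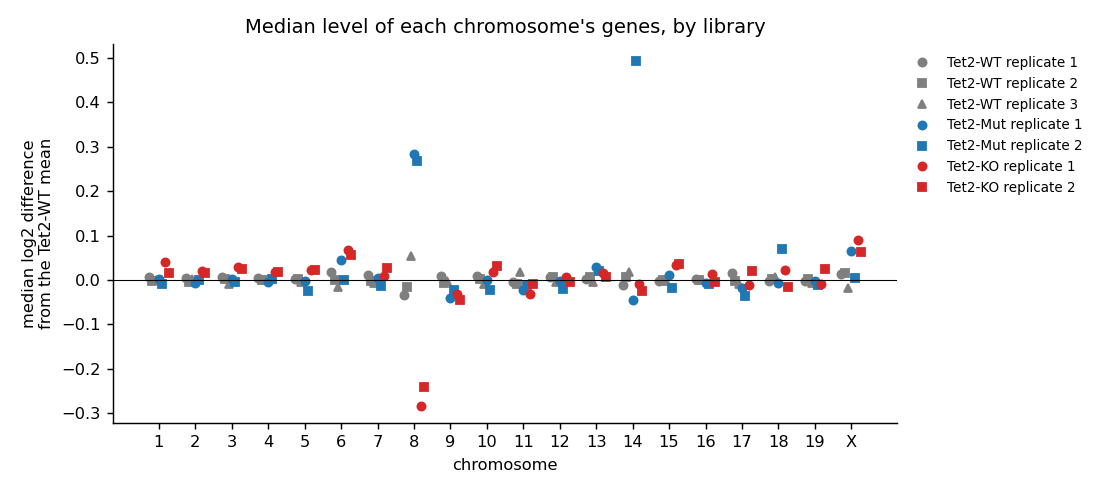
Median log2 difference of each chromosome's tested genes from the mean of the Tet2-WT libraries (y axis) for chromosomes 1 to 19 and X (x axis), with 1 point per library. On chromosome 8 both Tet2-Mut clones lie above and both Tet2-KO clones below the Tet2-WT samples, and on chromosome 14 Tet2-Mut replicate 2 alone is raised, by 0.493.

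Tet2 itself (chr3:133463677-133545136) was lower in Tet2-KO. Its normalized count was 9992 and 13181 in the Tet2-Mut clones, 4624 and 5206 in the Tet2-KO clones and 10343, 10244 and 12074 in the Tet2-WT samples. The Tet2-KO clones lay below every other library, and the Tet2-Mut and Tet2-WT libraries overlapped. The log2 difference between Tet2-KO and Tet2-Mut was -1.23 (SE 0.135, limma adjusted p = 0.00382), and it stayed between -1.43 and -1.03 with any 1 library left out. The transcript was thus reduced and not lost in the libraries labelled knockout. Counts over a whole gene do not show which exons the remaining reads cover, and no value here shows whether the protein is absent. Among the other 5 genes of the family list, Tet1, the most abundant dioxygenase of ESCs, was also lower, at 31464 and 37431 in Tet2-Mut, 23681 and 22462 in Tet2-KO and 26939 to 29189 in Tet2-WT (log2 fold change -0.57, SE 0.089, limma adjusted p = 0.00787). Tet3 and Tdg, the glycosylase that removes the oxidized bases, had log2 fold changes of 0.20 and 0.17 that did not pass the test.

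Of all genes tested, 1074 differed between Tet2-KO and Tet2-Mut at a limma adjusted p under 0.05, here referred to as called, which is 6.19% of them. They split into 458 higher in Tet2-KO (2.64% of all tested) and 616 lower (3.55%). At a change of at least 2-fold the split was the other way, with 248 higher and 116 lower. All called genes had groups that did not overlap, as had 44.8% of all genes tested. The median log2 fold change of all genes tested was 0.005. Centring each library on its chromosome medians, a choice made after the shifts were seen, gave 304 higher and 168 lower genes, of which 286 and 165 were among those called without centring, and leaving the chromosome 8 genes out gave 272 and 125. The calls lean on the spread shared with the Tet2-WT samples: with the 4 libraries alone 0 genes were called by limma (2357 at an unadjusted p under 0.05) and 0 by edgeR (2345). Omitting 1 library gave between 530 genes (Tet2-WT replicate 2) and 2679 (Tet2-Mut replicate 1), and 605, 661 and 552 without Tet2-WT replicate 1, Tet2-WT replicate 3 and Tet2-KO replicate 1. With every library left out in turn, 354 genes kept their call, 109 higher and 245 lower, and 201 of the latter lie on chromosome 8.

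Chromosome 8 held 862 tested genes, which is 4.97% of all, and 399 called ones, which is 37.2% of all called. Of these 396 were lower in Tet2-KO and 3 were higher. Across the chromosome 87.2% of the genes had a negative fold change, whether or not they passed the test, and the median was -0.521. The called genes had a median of -0.612, a 1.53-fold difference, and 26 of the 396 reached 2-fold. Chromosome 8 genes with known roles in ESCs were among them, such as Fgfr1, the main fibroblast growth factor receptor of the early embryo, E2f4, a cell cycle repressor, Jund and Ier2, immediate early genes, and Sap30 and Ing1, subunits of the Sin3 complex. E2f4 was at 17526 and 18335 in Tet2-Mut, at 11469 and 11099 in Tet2-KO and at 11711 to 14029 in Tet2-WT (log2 fold change -0.67). After centring, E2f4 moved to -0.13. Of the 25 genes of chromosome 8 called after centring, 5 were lower and the others were higher.

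**Figure D2:**
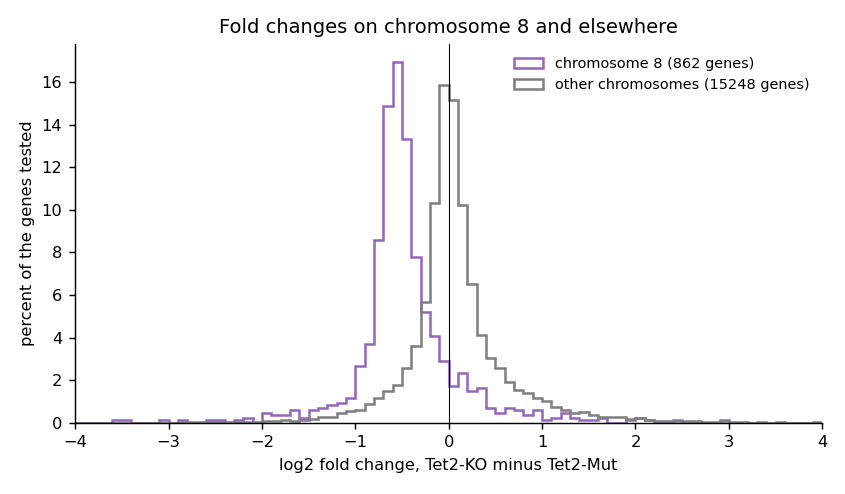
Distribution of the log2 fold change, Tet2-KO minus Tet2-Mut (x axis), as percent of the genes tested (y axis) for the 862 genes of chromosome 8 and for genes placed on other chromosomes; values beyond the axis are in the end bins. The chromosome 8 genes form a single peak with a median of -0.521, left of the peak of the other chromosomes.

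Outside chromosome 8, 455 genes were higher and 220 lower, and the largest changes were rises. Among the 12 highest genes, log2 fold changes ran from 2.99 to 4.46, and 6 were called with every library left out. They include T and Lhx1, transcription factors of the primitive streak, Gbp2b and Gbp2, Piezo2, a mechanosensitive ion channel, and Enpp2, the secreted enzyme autotaxin that makes lysophosphatidic acid. Enpp2 was at 265 and 122 in Tet2-Mut, at 1776 and 1155 in Tet2-KO and at 94.4 to 138 in Tet2-WT (log2 fold change 2.99, SE 0.368, limma adjusted p = 0.00417). In 11 of these 12 genes the Tet2-KO clones also lay outside the range of the Tet2-WT samples. The exception was Usp26, an X-linked ubiquitin protease of the germ line, at 269, 347 and 320 in Tet2-WT, 321 and 310 in Tet2-KO and only 76.2 and 15.4 in Tet2-Mut. Its call was lost without either Tet2-KO clone (limma adjusted p of 0.0506 and 0.0682). Sprr2a3, a cornified envelope gene with near-identical copies whose reads could be split among them, was at 4.12 and 0 in Tet2-Mut and 72.2 and 28.9 in Tet2-KO, and lost its call without any library but Tet2-Mut replicate 1 (limma adjusted p up to 0.244). Fgf5, Actc1 and Chst1 each lost it in 5 of 7 omissions and Wnt8a in 4, with limma adjusted p up to 0.169.

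Of the 12 lowest genes 11 are described. They fell less, with log2 fold changes from -3.25 to -1.98, and 3 of them kept the call with every library left out. Halr1, a long noncoding RNA next to the Hoxa cluster, fell from 1399 and 2352 in Tet2-Mut to 258 and 444 in Tet2-KO, with 935 to 1315 in Tet2-WT (log2 fold change -2.42, SE 0.3, limma adjusted p = 0.00417). Stra8, the retinoic acid target that starts meiosis, fell from 159 and 262 to 52.6 and 37.2, with 184 to 319 in Tet2-WT (log2 fold change -2.18). Pdyn, which encodes an opioid peptide precursor, also kept its call. Slc6a14, an amino acid transporter, had the largest fall, from 74.1 and 133 to 14.4 and 6.2, and was not called without Tet2-Mut replicate 2 or Tet2-KO replicate 2 (limma adjusted p up to 0.063). Dync1i1, Insc and Pou4f2 had Tet2-WT values that overlapped those of Tet2-KO, so the Tet2-Mut clones were the ones that stood apart. Sox1 and Pou4f2, both neural transcription factors, lie on chromosome 8, and after centring neither was called. Rgs20, Robo4 and Fitm1 had log2 fold changes of -2.83, -2.36 and -2.22, and none of them kept the call in every omission. Fitm1 lies on chromosome 14 and had a log2 fold change of -1.95 after centring.

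**Figure D3:**
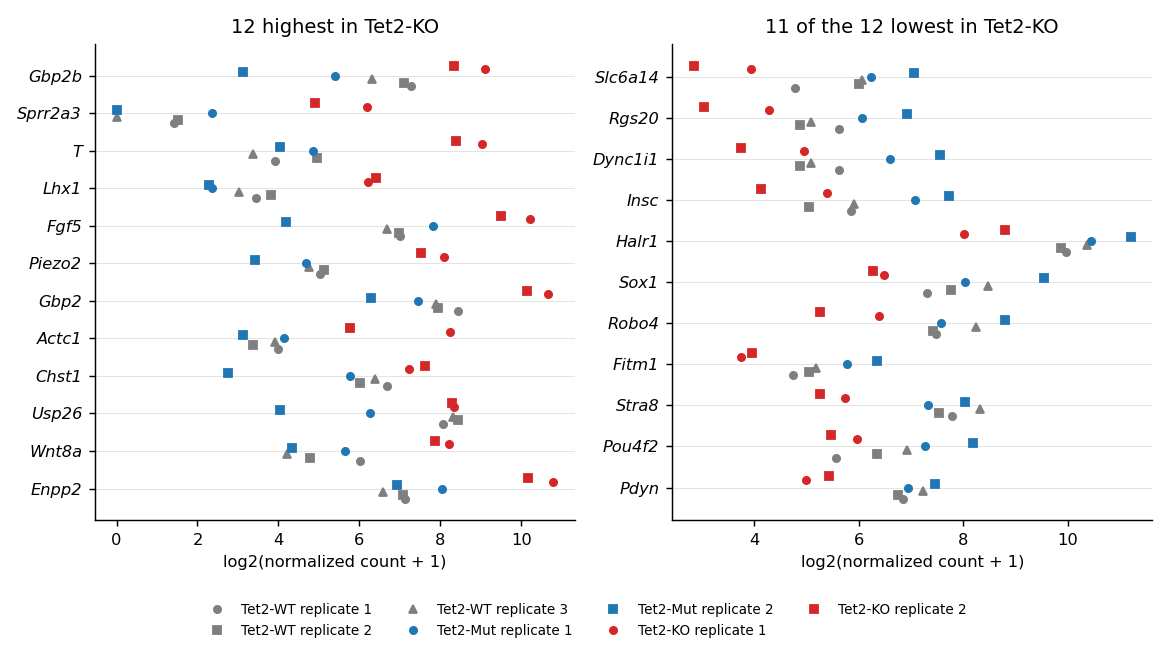
Log2(normalized count + 1) in each of the 7 libraries (x axis) for the 12 genes most raised (left) and 11 of the 12 most lowered (right) in Tet2-KO against Tet2-Mut, with 1 point per library. The 2 Tet2-KO points and the 2 Tet2-Mut points do not overlap in any gene, and Usp26 has its Tet2-WT points at the Tet2-KO level.

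Of 28 measured primitive streak and mesoderm genes, 10 were called higher in Tet2-KO and 0 lower, beside 2.64% of all genes tested called higher. The fold change was positive in 18 of the 28, and the median log2 fold change was 0.77. The count called higher was 4 without Tet2-KO replicate 1. T was at 27.8 and 15.4 in Tet2-Mut, at 520 and 333 in Tet2-KO and at 14.2, 30.1 and 9.44 in Tet2-WT. Both Tet2-KO clones were more than 10 times above every other library, and the Tet2-Mut and Tet2-WT libraries overlapped (log2 fold change 4.26, SE 0.555, limma adjusted p = 0.00457). Lhx1, a transcription factor of the node and axial mesendoderm, was at 4.12 and 3.86 in Tet2-Mut, 73.3 and 83.7 in Tet2-KO and 7.08 to 13.2 in Tet2-WT (log2 fold change 3.99). Eomes, the T-box factor of the early streak, was less changed, at 393 and 303 in Tet2-Mut, 843 and 676 in Tet2-KO and 578 to 667 in Tet2-WT, so that the Tet2-WT samples lay between the groups (log2 fold change 1.13). Snai1, the repressor of E-cadherin in ingressing cells, rose from 85.5 and 83 to 240 and 201 (log2 fold change 1.37). Hand1 and Cdx2, which act in extraembryonic mesoderm and in the posterior embryo as well as in the placenta, had log2 fold changes of 2.35 and 2.37. Snai1, Hand1 and Cdx2 were each not called without Tet2-KO replicate 1 (limma adjusted p of 0.091, 0.0574 and 0.135). Mixl1, another streak gene, was at 16.5 and 45.3 in Tet2-Mut and 70.2 and 53.8 in Tet2-KO and did not pass the test.

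Of 12 measured Wnt ligands 5 were called higher and 0 lower, beside 2.64% and 3.55% of all genes tested, with a median of 1.16. The number was 2 when either Tet2-KO clone was omitted, and 3 on omission of Tet2-Mut replicate 2 or of Tet2-WT replicate 2. Wnt3, the ligand that induces the streak, was at 70 and 34.7 in Tet2-Mut, 378 and 306 in Tet2-KO and 33 to 64 in Tet2-WT, and kept its call in every omission (log2 fold change 2.76, SE 0.417, limma adjusted p = 0.00717). Wnt8a, a ligand of the posterior epiblast, was at 49.4 and 19.3 in Tet2-Mut and 296 and 232 in Tet2-KO, with 17.7 to 64.1 in Tet2-WT. Wnt4 rose from 113 and 69.5 to 421 and 263, with Tet2-WT at 80.2 to 122, and was not called without Tet2-KO replicate 1 (limma adjusted p = 0.0897). Wnt7b had another order, at 466 and 767 in Tet2-Mut, 1251 and 2116 in Tet2-KO and 2357 to 3088 in Tet2-WT, so Tet2-KO lay between the Tet2-Mut clones and the Tet2-WT samples. It was not called without Tet2-KO replicate 2 (limma adjusted p = 0.0715). Wnt5a, a noncanonical ligand on chromosome 14, had a log2 fold change of 1.21 and lost its call in 6 of 7 omissions (limma adjusted p up to 0.17).

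Of 18 measured canonical Wnt targets, 4 were called higher and 0 lower, beside 2.64% and 3.55% of all genes tested. The median of the list was 0.47. The 4 were T, Sp5, Tnfrsf19, a receptor of the tumour necrosis factor family, and Tcf7, a transcription factor that is itself a target. The count was 2 without Tet2-KO replicate 1, Tet2-WT replicate 1 or Tet2-WT replicate 2, and 7 without Tet2-Mut replicate 1. Tnfrsf19 was at 276 and 268 in Tet2-Mut, 1023 and 657 in Tet2-KO and 234 to 280 in Tet2-WT (log2 fold change 1.59, SE 0.215, limma adjusted p = 0.0049), and 1.86 after centring, as it lies on chromosome 14. Sp5 was at 103 and 199 in Tet2-Mut and 625 and 453 in Tet2-KO, with 54.6 to 127 in Tet2-WT, and lost its call in 5 omissions (limma adjusted p up to 0.175). Tcf7 was at 3780 and 3113 in Tet2-Mut, 4697 and 4975 in Tet2-KO and 4144 to 4904 in Tet2-WT, which overlapped Tet2-KO, and lost its call in 6 omissions (limma adjusted p up to 0.133). Axin2, a widely used reporter of the pathway, was at 554 and 657 in Tet2-Mut and 980 and 711 in Tet2-KO and did not pass the test (log2 fold change 0.47). Lef1 was at 607 and 74.3 in Tet2-Mut, and this spread between clones left its log2 fold change of 1.90 short of the threshold. Among 25 receptors and inhibitors 2 were higher and 1 lower, with 4 and 4 without Tet2-Mut replicate 1, 0 and 1 without Tet2-KO replicate 1, and 1 and 1 without Tet2-Mut replicate 2 or any Tet2-WT sample. The inhibitor Sfrp1, on chromosome 8, fell from 2650 and 4048 to 1212 and 1532, with 3030 to 3409 in Tet2-WT, and had a log2 fold change of -1.26, or -0.73 after centring (limma adjusted p = 0.0695). The related Sfrp2 was higher, with a log2 fold change of 1.03, and was not called without Tet2-KO replicate 1 (limma adjusted p = 0.0766).

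The sequence CTTTGA, read on both strands, is present in the promoters shown of T, once and on the opposite strand 234 bases before the start, and of Sp5, at 204 and 104 bases before the start. It is absent from the 250 bases of Lhx1 and of Wnt3. Promoters were matched for 12101 of the 17338 genes tested, and 12.8% of these genes hold it in at least 1 listed promoter. The share was 15.3% among genes called higher, 10.6% among genes called lower on chromosome 8 and 11.5% among other genes called lower. CTTTGA was present for 3 of the 10 matched streak or Wnt genes called higher. It was also present for 4 of the 11 matched interferon or class I genes called higher, so it did not set the streak and Wnt genes apart. The E-box CACGTG, also on both strands, was present for 9.61% of all matched genes. Its share was 10.1% among genes called higher, 13.1% among genes called lower on chromosome 8 and 12.7% among other genes called lower. These are counts of letters in short windows and not of bound sites.

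Signals that work with Wnt in the streak moved in part. Counts here stand beside 2.64% of all genes tested called higher and 3.55% called lower. Fgf8, a growth factor of the streak, had values of 45.3 and 13.5 in Tet2-Mut and 190 and 121 in Tet2-KO (log2 fold change 2.56), but lost its call in 6 of 7 omissions (limma adjusted p up to 0.164). Among 28 genes of the Nodal, Lefty and BMP list, 3 were higher and 1 lower, with 6 and 4 without Tet2-Mut replicate 1 and 2 and 0 without Tet2-KO replicate 1. Fst, a secreted antagonist of activin, rose from 86.5 and 67.5 to 500 and 304, with Tet2-WT at 41.6 to 69.7 (log2 fold change 2.34, SE 0.348, limma adjusted p = 0.00684). Id2, a target of BMP signalling, rose from 399 and 416 to 943 and 823, with Tet2-WT at 643 to 812, between the groups (log2 fold change 1.11). Inhbb, an activin subunit, was lower, at 2963 and 6646 in Tet2-Mut and 998 and 1550 in Tet2-KO, and was not called without Tet2-KO replicate 1 (limma adjusted p = 0.0824). Nodal itself was at 2355 and 3287 in Tet2-Mut and 3018 and 2430 in Tet2-KO, groups that overlapped (log2 fold change -0.04).

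In the list of FGF and ERK feedback genes, 3 of 23 were higher and 4 lower, beside 2.64% and 3.55% of all genes tested. Spry4, on chromosome 18, an inhibitor that ERK signalling induces, fell from 11673 and 12809 to 5760 and 5494, with 7666 to 10006 in Tet2-WT (log2 fold change -1.12, SE 0.116, limma adjusted p = 0.00382). Spred2, a related inhibitor, and Etv4, a transcription factor downstream of FGF, had log2 fold changes of -0.47 and -1.11, and lost their calls in 3 and 5 omissions. Fgfr1 was lower by 0.43 on the log2 scale and, after centring, higher by 0.11 without passing the test. Fgfr2, the receptor of the epithelial splice forms, rose from 768 and 590 to 1262 and 1559, with Tet2-WT at 1218 to 1559, at the Tet2-KO level (log2 fold change 1.06). The list's higher count was 1 without either Tet2-KO clone or any Tet2-WT sample, its lower count was 2 without Tet2-KO replicate 1 or Tet2-WT replicate 2, and they were 4 and 9 without Tet2-Mut replicate 1.

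Several markers of the formative and primed states were called higher, and 2 were called lower. Of 25 measured formative and primed genes 8 were called higher and 2 lower, beside 2.64% and 3.55% of all genes tested. The median log2 fold change was 0.46. The 2 lower genes were Tcf15, with a log2 fold change of -1.10, and Etv4, given above. Neither of them kept its call in every omission. The higher count was 4 without Tet2-KO replicate 1, 5 without Tet2-Mut replicate 2 or any Tet2-WT sample, and 13 without Tet2-Mut replicate 1. The lower count ran from 0, without Tet2-KO replicate 1 or Tet2-WT replicate 2, to 3, without Tet2-Mut replicate 1. Pim2, an X-linked kinase, was at 2894 and 1175 in Tet2-Mut, 10252 and 8505 in Tet2-KO and 2343 to 2898 in Tet2-WT (log2 fold change 2.34, SE 0.328, limma adjusted p = 0.00552). Pou3f1, the epiblast POU factor Oct6, rose from 2401 and 1408 to 6200 and 4339 (log2 fold change 1.5). Dnmt3b, the de novo methyltransferase of the epiblast and the only one of 10 genes on the methyltransferase list to be called, rose from 28625 and 21915 to 54040 and 39689, with Tet2-WT at 20723 to 21243 (log2 fold change 0.89). Nes, which encodes an intermediate filament, had a log2 fold change of 1.18. These 4 genes kept their calls in every omission. Fgf5, the classic marker of the primed epiblast, spread widely between the Tet2-Mut clones, at 227 and 17.4, and was at 1192 and 725 in Tet2-KO. Its log2 fold change of 3.85 passed the test (limma adjusted p = 0.0384) but not in 5 of the 7 omissions (up to 0.167).

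Of 28 naive and core genes, 1 was higher and 2 were lower, beside 2.64% and 3.55% of all genes tested. None of the 3 kept the call in every omission. The fold change was negative in most of the 28 genes (positive in 6), the median was -0.15, and 11 had an unadjusted p under 0.05. The list held 2 higher and 8 lower genes without Tet2-Mut replicate 1, 1 and 4 on omission of Tet2-KO replicate 2, and 1 and 0 on that of Tet2-KO replicate 1. Dppa2 and Dppa4, partner proteins that keep developmental promoters open, were at 6438 and 8008 and at 8565 and 9638 in Tet2-Mut against 4865 and 4560 and 6746 and 6828 in Tet2-KO. Dppa4 was not called without Tet2-KO replicate 1 (limma adjusted p = 0.0565) and Dppa2 without either Tet2-KO clone (0.0532 and 0.0666). Lin28a, an RNA-binding protein that blocks let-7, had a log2 fold change of 0.52 and lost its call in 5 omissions (limma adjusted p up to 0.175). Nanog was at 19927 and 18677 in Tet2-Mut and 20672 and 24589 in Tet2-KO, and Pou5f1, which encodes Oct4, at 59096 and 72697 against 52412 and 58247, and neither passed the test. Of 17 genes of the LIF and Stat3 list 1 was higher and 2 lower, with 2 and 9 without Tet2-Mut replicate 1, 0 and 0 on omission of Tet2-KO replicate 1, 0 and 2 on that of Tet2-KO replicate 2, 2 and 1 without Tet2-Mut replicate 2, and 1 and 1 without any Tet2-WT sample. Of these Socs3, the feedback inhibitor of the pathway, was at 7634 and 7764 in Tet2-Mut and 5850 and 6505 in Tet2-KO, with 8381 to 9133 in Tet2-WT (log2 fold change -0.32), and lost its call in 5 omissions.

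Of 23 measured genes of the trophectoderm and placenta list 9 were called higher in Tet2-KO and 0 lower. These counts stand beside 2.64% and 3.55% of all genes tested. The median was 1.02, and 7 of the 9 kept the call in every omission. Against the Tet2-WT mean, the median of the list was 0.0 and 0.01 in the Tet2-KO clones and -0.6 and -0.69 in the Tet2-Mut clones, so Tet2-KO was at the Tet2-WT level and Tet2-Mut was below it. The 9 genes, Krt8, Krt18, Krt19, Rhox6, Rhox9, Eomes, Fgfr2, Hand1 and Cdx2, are each described with another list too. Hand1 was at 22.7 and 11.6 in Tet2-Mut, 99.1 and 76.5 in Tet2-KO and 94.1 to 123 in Tet2-WT, which overlapped Tet2-KO. Krt8 and Krt18, the keratin pair of simple epithelia, and Krt19 were the 3 of 10 keratins called. Krt8 was at 2173 and 2760 in Tet2-Mut, 10832 and 6010 in Tet2-KO and 2366 to 3157 in Tet2-WT (log2 fold change 1.72, SE 0.249, limma adjusted p = 0.00612). Krt18 was at 1479 and 1494 against 6649 and 3471, with 1684 to 2077 in Tet2-WT (log2 fold change 1.69), and Krt19 at 574 and 452 against 1600 and 1301, with 762 to 1063 in Tet2-WT (log2 fold change 1.5). In these 3 keratins the Tet2-KO clones lay above the Tet2-WT samples. Tet2-KO replicate 1 was the higher clone in each of the 3 keratins. Gata3, a trophectoderm transcription factor, had Tet2-WT and Tet2-KO libraries at 37.2 to 63.7 and Tet2-Mut clones at 2.06 and 19.3, and did not pass the test.

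The Rhox genes are X-linked homeobox genes that DNA methylation represses. Of 5 measured members 3 were called higher and 0 lower. Beside these and the imprinted and glycolysis counts below stand 2.64% of all genes tested called higher and 3.55% called lower. The median of the Rhox genes was 1.46, and all 3 kept the call in every omission. Rhox5 was at 2273 and 1516 in Tet2-Mut, 4947 and 5822 in Tet2-KO and 6111 to 7913 in Tet2-WT (log2 fold change 1.53, SE 0.187, limma adjusted p = 0.00417). Rhox6 was at 189 and 137 in Tet2-Mut, 504 and 669 in Tet2-KO and 888 to 1226 in Tet2-WT, and Rhox9 at 189 and 170, 442 and 556, and 745 to 1139. In all 3 genes both mutant genotypes lay below the Tet2-WT samples, and Tet2-Mut lay lowest. The same order held for H19, the maternally expressed imprinted RNA, at 126 and 112 in Tet2-Mut, 285 and 542 in Tet2-KO and 2534 to 3330 in Tet2-WT (log2 fold change 1.72, limma adjusted p = 0.00788), and for Nlrp4a, an oocyte gene, at 4.12 and 1.93, 20.6 and 53.8, and 62.5 to 126. H19 kept its call in every omission, and Nlrp4a was not called without Tet2-KO replicate 2 (limma adjusted p = 0.0742). Of 40 imprinted genes 3 were higher and 1 lower, with 1 and 4 without Tet2-KO replicate 1, 6 and 2 without Tet2-Mut replicate 1 and 5 and 1 without Tet2-Mut replicate 2. Peg3, a paternally expressed zinc finger gene, rose from 4535 and 3038 to 7830 and 6328, with 5748 to 6235 in Tet2-WT, and was not called without Tet2-KO replicate 1 (limma adjusted p = 0.0892). Phlda2, a maternally expressed growth inhibitor of the placenta, fell from 3165 and 3768 to 1792 and 1940, with 2271 to 2433 in Tet2-WT (log2 fold change -0.89). Ldhb, a lactate dehydrogenase subunit and the 1 called gene among 24 of glycolysis, was at 3654 and 3415 in Tet2-Mut, 11150 and 14990 in Tet2-KO and 7244 to 10809 in Tet2-WT (log2 fold change 1.87, SE 0.186, limma adjusted p = 0.00382). The median of the glycolysis list was 0.33, and 14 of its genes were called without Tet2-Mut replicate 1.

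Of 26 measured interferon-stimulated genes 5 were called higher in Tet2-KO and 0 lower, beside 2.64% and 3.55% of all genes tested. The fold change was positive in 17 of the 26, and the median was 0.43. Gbp2 was at 175 and 77.2 in Tet2-Mut, 1608 and 1139 in Tet2-KO and 238 to 348 in Tet2-WT, and kept its call in every omission (log2 fold change 3.53, SE 0.362, limma adjusted p = 0.00382). Gbp2b, its neighbour, was at 41.2 and 7.72 in Tet2-Mut, 547 and 323 in Tet2-KO and 77.9 to 154 in Tet2-WT (log2 fold change 4.46), and Gbp3 at 16.5 and 7.72, 111 and 68.2, and 48.4 to 65.7 (log2 fold change 2.84). In all 3 genes the Tet2-KO clones were highest, the Tet2-Mut clones lowest and the Tet2-WT samples between them. These paralogues lie side by side on chromosome 3 and their coding sequences are alike, so reads could be split between them. They are among the 5 genes called higher, of 71 tested, within 10 Mb of Tet2, where 0 were called lower and the median log2 fold change was 0.141. Irf1 was at 1323 and 725 in Tet2-Mut, 2133 and 2332 in Tet2-KO and 1562 to 1701 in Tet2-WT (log2 fold change 1.19). Gbp3 was not called without Tet2-KO replicate 1 (limma adjusted p = 0.0601), nor Irf1 without either Tet2-KO clone (0.0641 and 0.0704). The list's count was 2 on omission of Tet2-KO replicate 2, and 3 on that of Tet2-KO replicate 1, Tet2-Mut replicate 2 or a Tet2-WT sample.

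Of 20 genes of class I antigen presentation 7 were called higher and 1, Calr on chromosome 8, was lower. Among all genes tested the shares were 2.64% higher and 3.55% lower. Tapbp, the chaperone that loads peptides on class I molecules, rose from 1017 and 900 to 2321 and 1874, with 1510 to 1616 in Tet2-WT (log2 fold change 1.12, SE 0.122, limma adjusted p = 0.00382). Tap2, a subunit of the peptide transporter, rose from 63.8 and 44.4 to 233 and 233, with 64.9 to 104 in Tet2-WT (log2 fold change 2.11). These 2 kept the call in every omission. Psmb8, a subunit of the immunoproteasome, was at 45.3 and 15.4 against 192 and 155, and Erap1, which trims peptides, at 233 and 137 against 644 and 423. The invariant light chain B2m was at 332 and 380 against 669 and 612, and H2-K1 and H2-D1, heavy chains whose sequences resemble other H2 genes, had log2 fold changes of 0.70 and 0.95. B2m, H2-K1, H2-D1 and Psmb8 each lost the call in at least 4 of the 7 omissions. The list's higher count was 2 without Tet2-KO replicate 1, 3 without Tet2-Mut replicate 2 or Tet2-WT replicate 2 and 4 without Tet2-WT replicate 1, and 4 after centring by chromosome. Psmb9, which neighbours Psmb8, was at 103 and 91.6 in Tet2-Mut and 97 and 93.1 in Tet2-KO, groups that overlapped. The summed normalized count of 30 fibroblast markers, described with the contractile genes, moved the same way as the called genes of both lists, at 32500 and 18960 in Tet2-KO against 14670 and 11350 in Tet2-Mut, and its part in them was not tested.

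In the promoters shown above, the letters GAAA, any 2 bases and GAAA stand on the opposite strand 59 bases before the start of Gbp2, 137 before that of Gbp2b, and 45 and 39 before that of Gbp3. The other listed promoter of Gbp3 holds 0 matches. Searched on both strands, and counted once for a gene with several promoters, they are present in 2.97% of the 12101 matched genes tested, in 4.9% of genes called higher and in 3 of the 11 matched genes called higher on the interferon and class I lists. Gbp2b is on neither list and so is not among the 3. The TTCNNNGAA in the Irf1 promoter shown lies 90 bases before the start, and the other listed promoter of Irf1 holds 0 matches. That sequence is present in 6.87% of all matched genes and in 8.45% of genes called higher. Both of these sequences were chosen for the search after the fold changes were known.

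**Figure D4:**
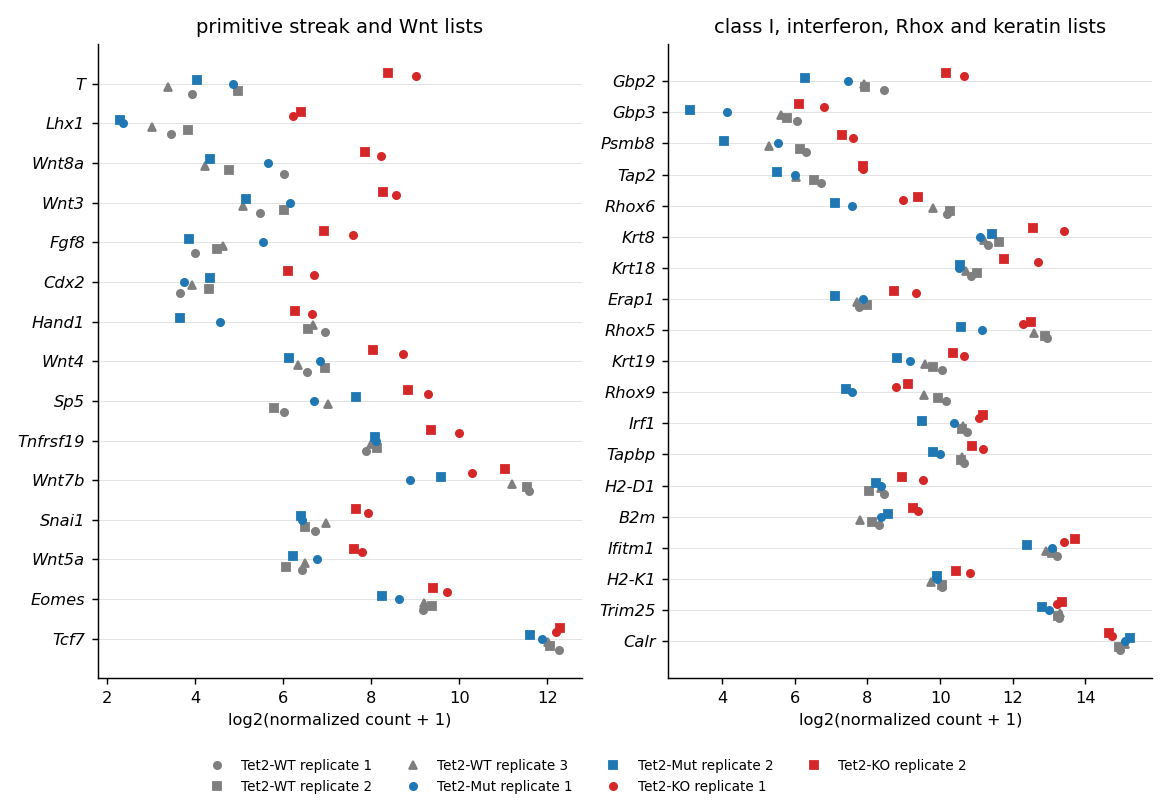
Log2(normalized count + 1) in each library (x axis) for the called members of the streak and Wnt lists (left) and of the class I, interferon, Rhox and keratin lists (right), with 1 point per library. The Tet2-KO points lie right of the Tet2-Mut points in every gene shown except Calr, and the Tet2-WT points sit with Tet2-Mut in T and Wnt3 and at or above Tet2-KO in Rhox5, Rhox6 and Rhox9.

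Of 26 measured contractile and SRF or YAP target genes 9 were called higher in Tet2-KO and 0 lower. Among all genes tested the shares were 2.64% higher and 3.55% lower. The fold change was positive in 25 of the 26, and the median was 0.99. Tagln, an actin-binding protein of smooth muscle and fibroblasts, was at 378 and 361 in Tet2-Mut, 1951 and 854 in Tet2-KO and 230 to 312 in Tet2-WT (log2 fold change 1.80, SE 0.326, limma adjusted p = 0.0144). Myh9, the main nonmuscle myosin heavy chain, was at 26111 and 23876 against 46481 and 36690, with 32752 to 35255 in Tet2-WT (log2 fold change 0.73). Amotl2, a YAP target, had a log2 fold change of 1.27 and Csrp1, a cytoskeletal LIM protein, one of 1.31. Actc1, the cardiac actin, was at 16.5 and 7.72 in Tet2-Mut and 299 and 53.8 in Tet2-KO, and lost its call in 5 omissions. Vim, which encodes the mesenchymal intermediate filament vimentin, rose from 3053 and 2423 to 9086 and 5487, with 3893 to 4497 in Tet2-WT (log2 fold change 1.38). The contractile count was 21 without Tet2-KO replicate 2, 13 without Tet2-Mut replicate 1, 7 without Tet2-KO replicate 1, 6 without Tet2-Mut replicate 2 or any Tet2-WT sample, and 16 with DESeq2. The summed normalized count of the list was 263100 and 172000 in Tet2-KO, 141500 and 134000 in Tet2-Mut and 126900 to 131300 in Tet2-WT.

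Of 30 measured fibroblast markers 4 were called higher and 0 lower, beside 2.64% and 3.55% of all genes tested. The fold change was positive in 29 of the 30 markers, and the median was 0.71. Their summed normalized count was 32500 and 18960 in Tet2-KO, 14670 and 11350 in Tet2-Mut and 10950 to 12010 in Tet2-WT, with none of the 30 at 0 in any library. Col5a1, a fibrillar collagen chain, rose from 1221 and 749 to 3740 and 2552 (log2 fold change 1.69), and Col1a1, the main collagen of fibroblasts, from 1137 and 689 to 2123 and 1444 (log2 fold change 0.98). Col5a1 kept its call in every omission, and Col1a1 lost it in 5 (limma adjusted p up to 0.213). The list's count was 8 without Tet2-KO replicate 2, 9 without Tet2-Mut replicate 1 and 2 without any other single library. The cells had been kept on feeder fibroblasts, and the part of such cells in the higher levels of contractile, matrix, keratin, class I and interferon genes, of Vim and Nes, and of the other groups described was not tested. In these bulk libraries more cells of a type and more RNA per cell cannot be told apart. Of 30 genes of matrix and integrins 3 were higher and 0 lower, among them Itga7, a laminin receptor subunit, at 202 and 198 in Tet2-Mut, 370 and 486 in Tet2-KO and 344 to 381 in Tet2-WT. This count was 6 without Tet2-KO replicate 2, 8 without Tet2-Mut replicate 1, 2 without Tet2-Mut replicate 2 and 1 without any other single library, and the lower count was 4 without Tet2-Mut replicate 1 and 2 without Tet2-KO replicate 1.

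Of 35 measured meiosis and germ cell genes 7 were called lower in Tet2-KO and 1 higher, beside 3.55% of all genes tested called lower. The median was -0.25 and 15 of the 35 had a positive fold change. Of the 7 lower genes 2 lie on chromosome 8. Tex14, which stabilizes the bridges between germ cells, fell from 1788 and 1575 to 942 and 1081, with 1769 to 1842 in Tet2-WT (log2 fold change -0.73, SE 0.108, limma adjusted p = 0.00641). Stra8, given above, Tex14 and Tex15 kept their calls in every omission. Tex15, a gene of piRNA-directed silencing and meiosis, lies on chromosome 8 and went from -1.14 to -0.60 on centring (limma adjusted p = 0.0583), and the synaptonemal complex gene Syce2, on the same chromosome, from -0.62 to -0.08. The lower count was 5 after centring and 4 without Tet2-KO replicate 1 or Tet2-WT replicate 2, and the higher count was 5 without Tet2-Mut replicate 1. Of 18 genes of the piRNA pathway 0 were higher and 2 lower, with 4 and 2 without Tet2-Mut replicate 1. Piwil2, the PIWI protein Mili, was at 1518 and 2496 in Tet2-Mut, 749 and 772 in Tet2-KO and 1301 to 1402 in Tet2-WT (log2 fold change -1.35, SE 0.193, limma adjusted p = 0.00603). It lies on chromosome 14, where Tet2-Mut replicate 2 was raised, and had a log2 fold change of -1.08 after centring. Ddx4, the helicase Vasa, had a log2 fold change of -0.71 and lost its call in 6 omissions (limma adjusted p up to 0.105).

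Genes of the 2-cell-like state, a rare state of ESC cultures, were low in all libraries. Of 8 measured genes 2 were called lower, beside 3.55% of all genes tested, and the median log2 fold change was -2.20. Zscan4a, of a family with near-identical copies, was at 33 and 44.4 in Tet2-Mut, 8.26 and 2.07 in Tet2-KO and 22.6 to 68.2 in Tet2-WT. Tmem92 was at 20.6 and 3.86 in Tet2-Mut and listed at 0 in both Tet2-KO libraries. Against a floor of 3 reads per library, a value of 3.1 in Tet2-KO, the Tet2-Mut mean of 12.2 was at least 3.95-fold higher. This bound rests on Tet2-Mut replicate 1, as Tet2-Mut replicate 2 lay close to the floor. Both calls were lost in at least 5 of the 7 omissions, and 0 members were called when Tet2-KO replicate 2 or a Tet2-WT sample was omitted.

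Counts for 2 lists of chromatin regulators follow, beside 2.64% of all genes tested called higher and 3.55% called lower. Of 25 measured genes of the Sin3 complex and its partner Ogt, 2 were lower and 0 higher, and both, Sap30 and Ing1, lie on chromosome 8. Sap30 was at 5799 and 5804 in Tet2-Mut, 3799 and 4120 in Tet2-KO and 4695 to 4729 in Tet2-WT (log2 fold change -0.55, SE 0.072, limma adjusted p = 0.00457), and at -0.02 after centring (limma adjusted p = 0.93). Ing1 went from -0.47 to 0.06. The scaffold Sin3a was at 13273 and 12273 in Tet2-Mut and 14806 and 14666 in Tet2-KO, with 13759 to 14236 in Tet2-WT, and did not pass the test (log2 fold change 0.21, limma adjusted p = 0.11). Hdac1, Hdac2 and Ogt had log2 fold changes of 0.03, 0.03 and -0.12 that did not pass it either. Of 26 Polycomb subunits 1 was higher and 2 were lower, with 1 and 5 without Tet2-Mut replicate 1 and 2 and 0 without Tet2-KO replicate 2. Phf19, which tethers the complex to marked nucleosomes, was at 1323 and 1386 in Tet2-Mut, 2266 and 2885 in Tet2-KO and 2644 to 2823 in Tet2-WT (log2 fold change 0.92, SE 0.116, limma adjusted p = 0.00434). Bmi1 and Jarid2 had log2 fold changes of -1.27 and -0.42, and each lost its call in 6 omissions (limma adjusted p up to 0.0948 and 0.167).

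**Figure D5:**
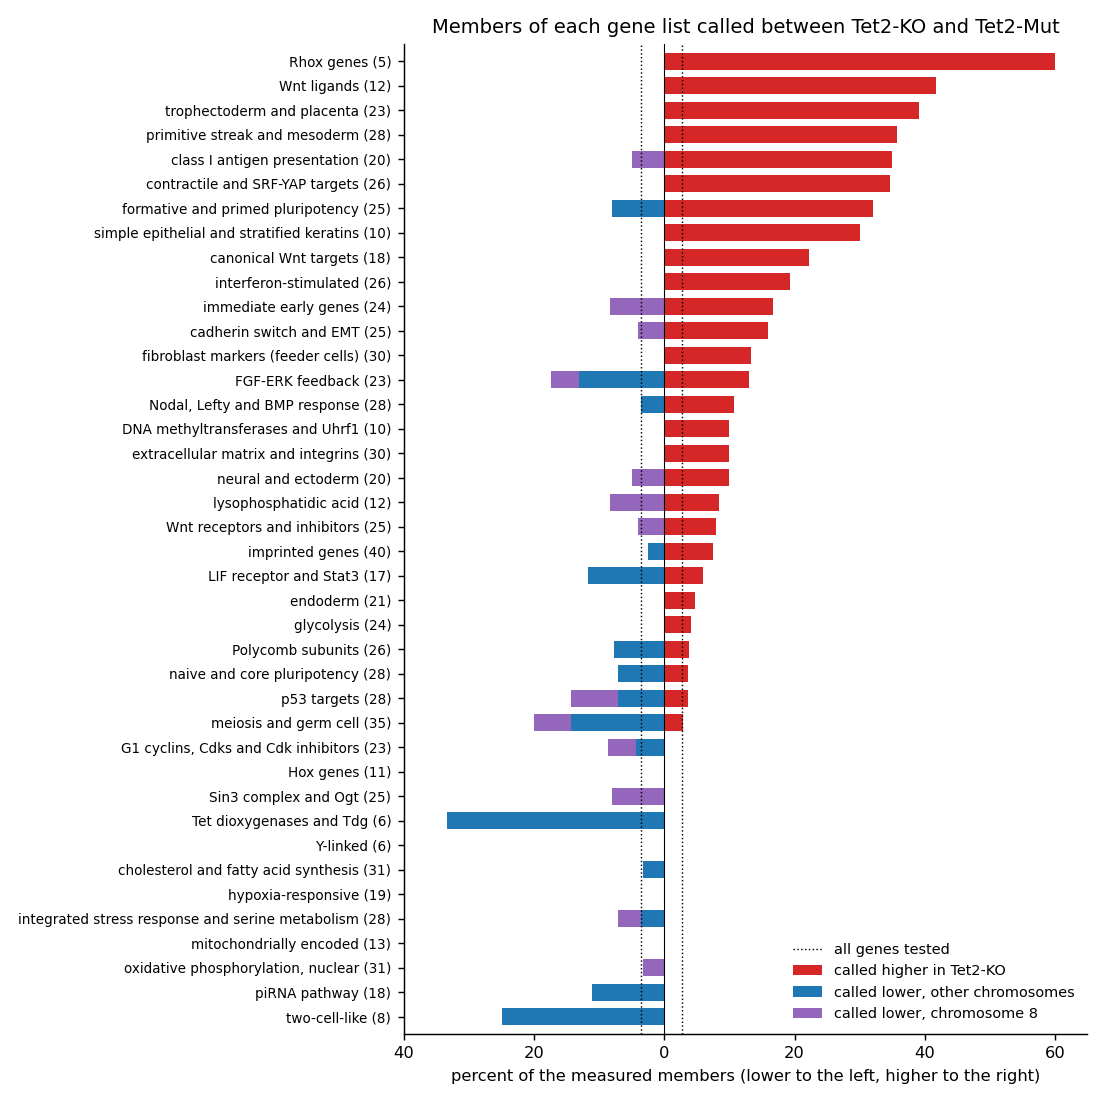
Percent of the measured members of each of the 40 gene lists (y axis, number measured in brackets) called higher in Tet2-KO (right of 0) or lower (left of 0), with the lower genes of chromosome 8 in a colour of their own. Dotted lines give the shares of all genes tested, 2.64% higher and 3.55% lower; the Rhox, Wnt ligand, trophectoderm and streak lists have the longest bars to the right.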

How the data were processed

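The members and the 40 gene lists were chosen with earlier results of these data known. The authors deposited a table of 17342 genes in 7 libraries whose values are a linear signal, the count of each gene over a size factor per library from DESeq2. Per the submitters' processing notes reads were handled with STAR 2.7.3a, Trim Galore 0.6.5, featureCounts and DESeq2 on the mm10 build; annotation and strand setting are not given in the sources used here. In 6 libraries all values were whole multiples of the value of 1 read (100%, tolerance 0.01 reads). Tet2-WT replicate 1 lists no value of 1 read, so its step came from the spacing of its values. Between 72.1% and 75.2% of the values of 1 to 20 reads were even, so mates of a pair may have been counted separately.

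Differences were tested with limma 3.58.1 (R 4.3.3) on log2(value + 1), which understates the change of low genes, with group means over all 7 libraries, a prior that follows the mean (residual degrees of freedom 4, prior 5.03) and Benjamini-Hochberg adjustment at 0.05 over 17338 genes. The 2 Tet2-KO and 2 Tet2-Mut clones share the estimate of the spread with the 3 Tet2-WT samples, which lay closer together, so p-values can be too small. Other fits used edgeR 4.0.16 and DESeq2 1.42.0 on the recovered counts of the deposited values, other pseudocounts, filters, scalings and priors, a replicate block, and each library left out. Replicate numbers were taken to name clones or samples and not to pair them, since the labels describe no pairing. A floor of 3 reads was used for genes at 0. Positions and promoters came from RefSeq GRCm38.p6, matched for 16113 genes (92.9%).

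Genes were named by rule: Tet2, then the 12 highest and 12 lowest called fold changes whose higher group averaged 50 or more, whose groups did not overlap and whose name is not that of a predicted gene or clone, then up to 4 called members per list with the smallest p; 1 of these genes is not reported here. Other genes named, among them those that did not pass the test, were chosen after their values were seen.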

Additional observations from a re-analysis of the deposited data

How the results depend on the processing

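Counts of genes higher and lower stayed within 1.5 times of 458 and 616 with other pseudocounts, filters, upper quartile scaling, quantile normalization, a robust prior and edgeR on recovered reads (1054 genes in all). DESeq2 gave 1815 genes (862 higher, 953 lower), and a prior without trend gave 10 (5 and 5). The 4 libraries alone gave 0 with limma (lowest adjusted p 0.0671; 2357 genes at an unadjusted p under 0.05) and 0 with edgeR (2345), a fit with fewer samples. Leaving out 1 library gave 530 to 2679 genes, 188 to 1274 higher and 336 to 1405 lower; where this left a group with 1 clone, that clone was assumed to vary like the other groups. The replicate block gave 467 genes (183 higher, 284 lower). Deviations of same-numbered libraries correlated at -0.2 for Tet2-KO with Tet2-Mut, -0.12 for Tet2-KO with Tet2-WT and 0.13 for Tet2-Mut with Tet2-WT. With so few libraries, which also carry differences between clones, these values cannot decide whether same-numbered samples were handled together. Choices added after the data were seen gave 472 genes with each library centred by chromosome (304 higher, 168 lower), 397 without the chromosome 8 genes (272 and 125), and 601 with edgeR without Tet2-WT replicate 1 (210 and 391). Of 116 genes named by the rule, 54 were called with every library left out in turn. On centring, 6 chromosome 8 genes changed sign without passing the test, Ing1 to 0.061, Fgfr1 to 0.108, Calr to 0.064, Ckap2 to 0.046, Cox4i1 to 0.089 and Lpar2 to 0.030. Beyond the settings that are fewer samples or genes by construction, the cause of these differences was not tested.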

Other observations

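Counts for germ layer lists other than the streak follow, beside 2.64% of all genes tested called higher in Tet2-KO and 3.55% called lower. Of 21 endoderm genes 1, Fst, was higher and 0 lower, and of 11 Hox genes 0 were called (1 at an unadjusted p under 0.05). Of 20 neural genes 2 were higher and 1, Sox1 on chromosome 8, was lower. Neurod1, a transcription factor of neurons and endocrine cells, was at 611 and 690 in Tet2-Mut, 1036 and 1285 in Tet2-KO and 492 to 556 in Tet2-WT, and was not called without Tet2-KO replicate 2 (limma adjusted p = 0.0533). In the list of the cadherin switch 4 of 25 genes were higher and 1, Cdh1 on chromosome 8, was lower by 0.33 on the log2 scale, and 0.20 after centring, where it was not called. Cldn7, a tight junction protein, rose from 1303 and 1091 to 2068 and 2133, with 1414 to 1813 in Tet2-WT, and kept its call with every library left out.

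Counts with all libraries for lists of metabolism and stress follow, beside 2.64% of all genes tested called higher and 3.55% called lower. Several of the lower genes lie on chromosome 8. Of 24 immediate early genes 4 were higher, among them Jun, and 2, Ier2 and Jund, both on chromosome 8, were lower; 0 were higher without any library but Tet2-Mut replicate 1 and Tet2-KO replicate 2. Of 28 p53 targets 1 was higher and 4 lower, of which 2, Ckap2 and Gdf15, lie on chromosome 8. Of 23 G1 regulators 2 were lower, E2f2 and, on chromosome 8, E2f4. Of 28 genes of the integrated stress response and serine metabolism 2 were lower, Nupr1 and, on chromosome 8, Slc7a5. Of 31 nuclear genes of oxidative phosphorylation 1, Cox4i1 on chromosome 8, was lower, and of 13 mitochondrially encoded genes 0 were called (0 at an unadjusted p under 0.05). Of 31 genes of cholesterol and fatty acid synthesis 1, Acaca, was lower, and of 19 hypoxia-responsive genes 0 were called (3 at an unadjusted p under 0.05). Of 12 genes of lysophosphatidic acid signalling Enpp2 was higher and Lpar2, on chromosome 8, was lower.

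These counts moved with single libraries, most of all Tet2-Mut replicate 1. Without it, cholesterol and fatty acid synthesis had 9 genes higher and 2 lower, p53 targets 3 and 7, the integrated stress response 2 and 7, and immediate early genes 5 and 6. Lysophosphatidic acid signalling then had 5 and 4, G1 regulators 1 and 4, the cadherin switch 8 and 1, neural genes 4 and 1, endoderm genes 2 and 1, nuclear oxidative phosphorylation 0 and 3, and hypoxia-responsive genes 1 and 1. The lower p53 count was 1 without any Tet2-WT sample, and 2 without Tet2-Mut replicate 2 or either Tet2-KO clone. Without Tet2-KO replicate 1 the cadherin switch had 2 higher genes, and without Tet2-KO replicate 2 endoderm had 3 and neural genes had 1. The lower G1 count was 1 on omission of any library but Tet2-Mut replicate 1, and the lower count of the stress response was 0 without Tet2-KO replicate 2 or Tet2-WT replicate 2.

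Y-linked genes differed between clones of a group. Ddx3y was at 1655 and 5.79 in Tet2-Mut, 43.4 and 2143 in Tet2-KO and 595 to 661 in Tet2-WT, and Uty at 3094 and 1.93, 57.8 and 1681, and 422 to 489. Of 6 Y-linked genes on the list 0 were called (0 at an unadjusted p under 0.05), with log2 fold changes that carried standard errors such as 2.29 for Ddx3y. On omission of Tet2-Mut replicate 1, 4 were called higher, and on omission of Tet2-Mut replicate 2, 1 was called lower.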
